A study of Mus musculus with 23 samples.

Results

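By label, the mouse embryonic stem (ES) cells of the doxycycline experiments lack all Argonautes of their own and carry an added Ago2 that doxycycline induces. After 96 h without doxycycline, 214 of the 18412 genes measured had lower exon reads than at the start. These genes had higher reads again after a small dose of doxycycline. Their level at a large dose was 0.67 to 1.5 times that at the small one. The members of this set were selected on measured values. With group means plus 1 and 0 h as the start, the exon level at 96 h was at most 0.6 times that at 0 h, the level at 0.1 µg/mL doxycycline was at least 1.7 times that without it, and the level at 2.5 µg/mL lay between 0.67 and 1.5 times that at 0.1 µg/mL. The mean level over the 4 times had to be at least 50 normalised reads. These contrasts, in exons and in introns, are therefore given as description with no test. Tests of members were kept for the genetic series, which the rule did not read, and for 48 h against 24 h. Those groups enter none of the 3 ratios, though they count in the mean level of at least 50.

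Argonaute proteins hold microRNAs, short RNAs that pair with messenger RNAs mainly through a seed of 7 bases and lower their translation and stability. Ago2 is one of the 4 mouse Argonautes. Mouse ES cells make much of one family of microRNAs that share a seed, the miR-290 cluster, and little mature let-7, whose processing the RNA-binding protein Lin28a blocks. A messenger RNA that microRNAs hold down is, by that mechanism alone, higher without Argonaute. The genes described here were chosen for being lower, and what made them lower was not tested.

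All cells were ES cells grown on gelatin in serum with LIF, and the polyadenylated RNA of 23 samples was sequenced with strand kept. In the genetic series, wild type was AB2.2 (n = 2) and the line B9 was Blm-/-;Ago1,3,4-/- (n = 2). It also held E7, which is Blm-/-;Ago1,2,3,4-/-;CreERT2;hAgo2fl (n = 3), and C62 and C86, clones labelled Blm-/-;Ago1,2,3,4-/-;CreERT2, a genotype with no Argonaute (n = 2, 1 library of each clone). Both doxycycline experiments used TT-FHAgo2, clonal cells of the genotype of C62 and C86 (Blm-/-;Ago1,2,3,4-/-;CreERT2) that also carry TT-FHAgo2, an Ago2 under doxycycline, and are kept in culture at 0.1 µg/mL doxycycline. Whether the libraries come from 1 clone or several is not given in the sources used here. For the time course they were given 2.5 µg/mL for 48 h, the dose said by the labels to give the wild-type level of Ago2, and then none for 0, 24, 48 or 96 h, with 2 libraries a time. In the rescue series a first group had 96 h without it (n = 2), and others then had 48 h at 0.1 or at 2.5 µg/mL (n = 2 each). Every mutant line lacks Blm, which wild type has. Time without doxycycline and time in culture cannot be told apart in the time course, and the dosed rescue groups were likewise 48 h longer in culture than their control. Nothing in the labels says that the libraries of a line came from separate cultures, so p-values may measure technical spread only.

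The sequences on which these results bear are the seeds of the ES-cell microRNAs and of let-7, the let-7 sites of Lin28a, and promoter windows of members with intron reads that moved with their exon reads. The first lines give mature microRNAs from RefSeq (GRCm38.p6, the build mm10), 5′ to 3′, with the seed, bases 2 to 8, in capitals. The microRNAs miR-294-3p (chr7:3220691-3220712, + strand) and miR-291a-3p (chr7:3218968-3218989, + strand) have the same seed, and let-7g-5p (chr9:106178846-106178867, + strand) has another.
mmu-miR-294-3p: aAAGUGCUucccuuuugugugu
mmu-miR-291a-3p: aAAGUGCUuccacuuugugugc
mmu-let-7g-5p: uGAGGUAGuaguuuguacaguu
The 3′ UTR of Lin28a, 2775 bases long in the GENCODE transcript used, held no AGCACTT, the match to the miR-294 seed, and 2 copies of CTACCTC, the match to the let-7 seed. They lie at bases 909 to 915 and 1547 to 1553 of the UTR and are shown in capitals.
Lin28a first let-7 match: gcacagcctgttgaaCTACCTCa
Lin28a second let-7 match: gagatcgccacaaacCTACCTCa
The promoter windows run from 250 bases before to 50 bases after the RefSeq start, on the strand of the gene. Capitals mark every match to 12 short motifs, here GGGCGG (GC box of Sp and Klf factors), CCAAT (NFY) and CATTGT (Sox core), read on both strands. Lin28a lies at chr4:134018767-134019066 (- strand), Matn3 at chr12:8947679-8947978 (+ strand) and Odc1 at chr12:17544623-17544922 (+ strand).
Lin28a: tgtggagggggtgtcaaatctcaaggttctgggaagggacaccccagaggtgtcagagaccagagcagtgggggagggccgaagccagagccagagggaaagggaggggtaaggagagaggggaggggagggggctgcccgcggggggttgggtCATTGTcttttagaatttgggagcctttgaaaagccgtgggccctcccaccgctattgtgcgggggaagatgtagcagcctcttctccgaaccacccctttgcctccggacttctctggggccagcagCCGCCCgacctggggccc
Matn3: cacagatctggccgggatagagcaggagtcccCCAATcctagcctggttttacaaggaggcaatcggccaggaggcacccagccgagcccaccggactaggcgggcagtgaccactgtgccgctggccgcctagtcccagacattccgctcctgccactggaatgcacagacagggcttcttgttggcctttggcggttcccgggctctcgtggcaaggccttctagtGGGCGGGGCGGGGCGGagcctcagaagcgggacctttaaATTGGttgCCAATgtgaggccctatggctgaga
Odc1: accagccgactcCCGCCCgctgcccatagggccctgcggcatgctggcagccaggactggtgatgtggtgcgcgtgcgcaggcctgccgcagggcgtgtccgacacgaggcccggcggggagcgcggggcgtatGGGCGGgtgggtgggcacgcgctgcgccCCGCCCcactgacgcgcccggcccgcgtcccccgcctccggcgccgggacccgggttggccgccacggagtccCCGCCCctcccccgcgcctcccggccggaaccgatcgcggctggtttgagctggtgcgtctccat
In the GENCODE annotation of the same build, Lin28a spans chr4:134003330-134018841, Matn3 chr12:8947929-8972028 and Odc1 chr12:17544794-17551505, and all are protein coding. The Lin28a window held 1 GC box and 1 Sox core, and the Odc1 window 4 GC boxes and no other match. In the Matn3 window 3 GC boxes and 3 CCAAT boxes were found. A match is a run of letters and no evidence of binding.

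Libraries held 13.5 to 53.7 M exon reads (genetic series), 32.9 to 62.4 M (time course) or 24.7 to 53.8 M (rescue). Libraries of 1 group differed by a median absolute log2 value of 0.321 to 0.565 per gene in the genetic series. This spread was smaller in the other experiments, 0.0734 to 0.0947 over the time course and 0.0820 to 0.105 over the rescue. For Ago1 the wild-type libraries had 4104 ± 834 exon reads (SD, n = 2) and every other group 0. Exon reads over Ago2 were 11963 ± 288 at the start, 10794 ± 32.6 after 96 h, 7280 ± 28.5 without doxycycline, 7724 ± 73.6 after the low dose and 5689 ± 572 after the large one (SD, n = 2 each). They did not follow the dose. In the genetic series Ago2 exon reads were 6227 ± 1452 for wild type, 6734 ± 1214 for B9 (n = 2 each), 5209 ± 1611 for E7 (n = 3) and 5819 ± 876 for clones labelled Ago-null (n = 2). Intron reads of Ago2 were 206 ± 127, 220 ± 116, 1239 ± 92.6 and 1661 ± 366 in the same order. The exon means differed by less than the larger SDs, and intron reads were higher where the label gives Ago2-/-. Which part of Ago2 was removed is not given in the sources used here, so reads summed over the gene do not check that label, and the clones are described by it. Summed reads of 8 ES-cell markers were 193540 to 496300 per group. All 8 fibroblast and feeder markers together had 203 to 916, and 3 trophoblast markers 8.09 to 43.7. Each group had at least 1 feeder marker at 0. The 5 primitive endoderm markers summed to 699 reads for wild type, 684 for B9, 191 for E7 and 310 for the clones. Over the time course the sum was 344 to 402, and over the rescue 214 to 300. Among them Sox7 went with the members, from 163 reads at the start to 12.8 after 96 h, and from 27.1 without doxycycline to 67.4 with the low dose and 103 with the large one. Dab2 did so too, from 110 to 40.4 and from 24.3 to 47.4 and 90.0, while Gata4 went from 114 to 272 and from 174 to 89.7 and 96.1. The part of these cells in the members' values was not tested. Neural markers (Nes, Sox1, Pax6 and Tubb3) summed to 10335 at the start and 11030 after 96 h, and to 5608, 5511 and 5383 in the 3 rescue groups in order of dose. Their sum was 5012 for wild type, 3297 for B9, 4631 for E7 and 9360 for the clones. In bulk RNA, fewer cells of a type and less RNA per cell cannot be told apart.

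Of 12027 genes with a mean level of at least 50, 854 had a 96 h level of at most 0.6 times that at the start. The 214 members are those of the 854 with a low-dose ratio of at least 1.7 and a ratio between doses of 0.67 to 1.5. A further 517 were under 1.7 times at 0.1 µg/mL, 118 were more than 1.5 times higher again at 2.5 µg/mL and 5 were lower there. Just inside the limits, Rasal1 had a 96 h ratio of 0.599 and 1110008F13Rik a low-dose ratio of 1.704. Just outside them were Padi3 at 0.608 and Cyct at 1.699. The upper limit between doses falls between Trim52 (1.489) and 1500009L16Rik (1.507), and the lower one between Nexn (0.692) and En1 (0.646). For the mean level, Nexn had 51.0 and Plcb1 49.97.

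**Figure D1:**
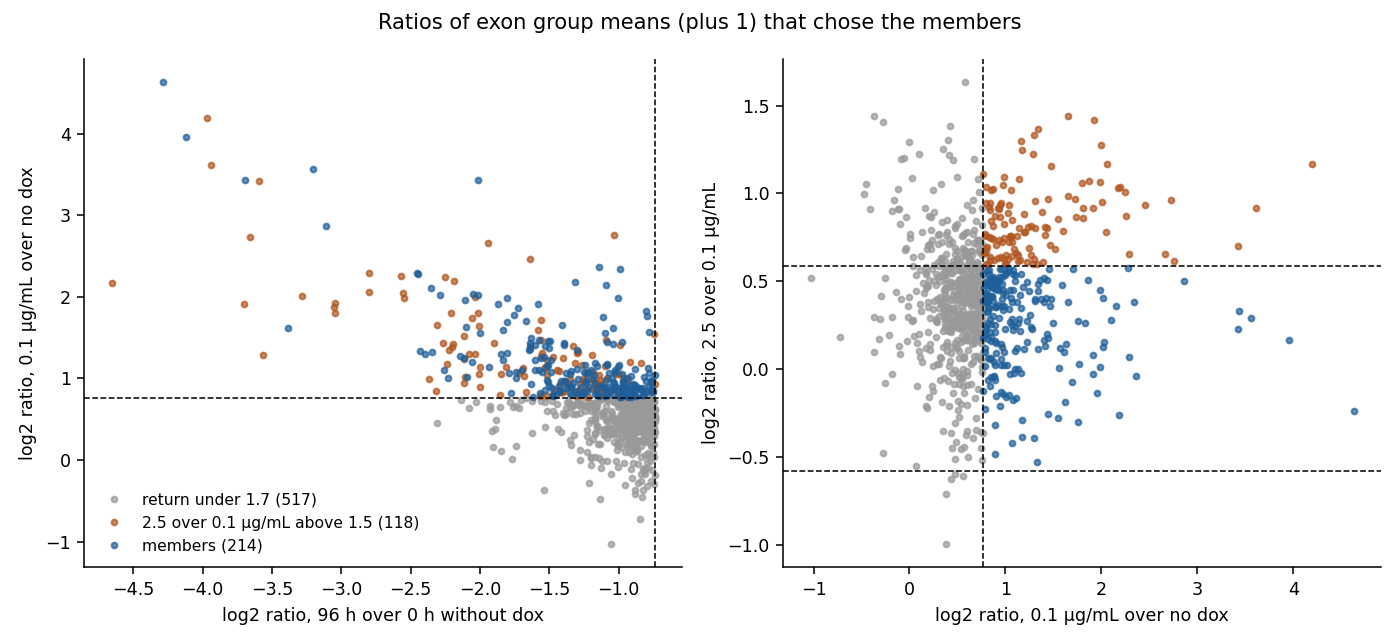
Log2 ratios of exon group means (plus 1) for genes with a 96 h ratio of at most 0.6. Left, the low-dose ratio (y) against the 96 h ratio (x). Right, the 2.5 over 0.1 µg/mL ratio (y) against the low-dose ratio (x). Dashed lines are the limits of the rule. The 214 members (blue) lie next to 517 genes under the low-dose limit (grey) and 118 genes higher again at 2.5 µg/mL (brown). The 5 genes lower at 2.5 µg/mL are not drawn.

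The 96 h ratios of the members ran from 0.0514 to 0.599 with a median of 0.426. In all 214 both 96 h libraries were below both 0 h libraries, where 40.9% of all genes tested were so. Low-dose ratios ran from 1.704 to 24.8 with a median of 2.00. Both 0.1 µg/mL libraries were above both libraries without doxycycline in 212 of 214 members, against 35.4% of all genes. The exceptions were Fgf13 and Phactr3. Fgf13 had 15.8 and 71.1 reads without doxycycline and 86.7 and 69.3 with 0.1 µg/mL. Phactr3 had 19.7 and 6.47 without it and 17.6 and 31.1 with 0.1 µg/mL. The rule fixed both of these contrasts, so the counts show nothing about the members. Levels spanned a wide range, from 3.78 normalised exon reads per kb of exon at the start (Irs1) to 34660 (Aldoa), with a median of 169.

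Lin28a, which blocks the processing of let-7 and binds many messenger RNAs, was the third most abundant member. Its normalised exon reads were 31347 and 31030 at the start, 23442 and 22525 after 24 h, 12723 and 12573 after 48 h, and 3541 and 3676 after 96 h. Each time lay below the one before with no overlap, and the 96 h mean was 0.116 times that at the start. After 96 h without doxycycline the rescue libraries had 2297 and 2563 reads, with 0.1 µg/mL 17978 and 17434, and with 2.5 µg/mL 24239 and 25876. The low dose thus stood 7.28 times above none, and the large dose 1.42 times above the low one. Unspliced reads from Lin28a introns were few but moved the same way, with 124 and 142 at the start, 28.1 and 24.1 after 96 h, 8.65 and 13.5 without doxycycline, and 49.96 and 72.3 with 0.1 µg/mL.

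Including Lin28a, 15 members act on RNA or in translation, and all 15 group means after 24 h were below that at the start. Among them are Pabpc4, a cytoplasmic poly(A)-binding protein, Nip7 and Nhp2, factors of ribosome and H/ACA ribonucleoprotein assembly, and Exosc2, a subunit of the RNA exosome. Nhp2 had 8603 and 8444 reads at the start, 6206 and 5985 after 24 h, 4294 and 4344 after 48 h, and 4400 and 4296 after 96 h. Its values at 48 and 96 h overlapped, so no further difference was seen after 48 h. Nip7 showed the same course, with 8433 and 8059, 4931 and 5275, 3832 and 3808, and 4032 and 3675 reads at the 4 times. Pabpc4 went on down, from 13040 and 13146 at the start to 7545 and 7795 after 48 h and 5824 and 5476 after 96 h. At 0.1 µg/mL it had 6958 and 6785 reads against 3781 and 3629 without doxycycline.

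Of 11 members that work in mitochondria, 9 had a lower mean after 24 h than at the start. Tomm5, a small subunit of the outer-membrane import pore, had 4223 and 3906 reads at the start and 2878 and 2827 after 24 h. At 48 h it had 1523 and 1540 and after 96 h 1545 and 1287. In the rescue Tomm5 had 1013 and 1004 reads without doxycycline, 2254 and 2236 with 0.1 µg/mL, and 2870 and 3146 with 2.5 µg/mL. Mrpl12, a protein of the mitochondrial ribosome, had 4856 and 4886 reads at the start, 2481 and 2328 after 48 h, and 2533 and 2373 after 96 h. The group median after 96 h was 0.504 times 0 h, the smallest departure among the roles, which were assigned after the values were known.

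Transcription factors and chromatin proteins make up 24 members. Dnmt3b, a de novo DNA methyltransferase, had 10695 and 10337 reads at the start, 7269 and 6879 after 24 h, 5021 and 4863 after 48 h, and 4593 and 4402 after 96 h. Its low-dose libraries had 6278 and 5974 reads against 3338 and 3491 without doxycycline. Dnmt3l, a cofactor of Dnmt3 enzymes with no catalytic activity, had a 96 h ratio of 0.329 and a low-dose ratio of 2.14. Both are also markers of the formative state, in which ES cells leave naive pluripotency. A further marker of it, the POU factor Pou3f1, had 553 and 571 reads at the start and 175 and 201 after 96 h. Vrtn, a gene known for its effect on the number of vertebrae, had 96.6 and 143 reads at the start and 3.89 and 8.06 after 96 h. In the rescue Vrtn had 1.97 and 2.16 reads without doxycycline and 47.8 and 45.3 with 0.1 µg/mL, a ratio of 15.5 with the added 1.

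Myc, a transcription factor of growth genes, had its lowest mean after 48 h. Its libraries had 2801 and 3114 reads at the start, 1276 and 1042 after 24 h, 578 and 623 after 48 h, and 1081 and 951 after 96 h. Myc values after 96 h overlapped those after 24 h, and at 0.1 µg/mL it had 1684 and 1696 reads against 686 and 721 without doxycycline. Etv4 and Gbx2 had the same shape. Etv4, an ETS factor induced by Fgf signals, had 7317 and 7378 reads at the start, 1837 and 1938 after 48 h, and 2639 and 2645 after 96 h. Gbx2, a homeobox factor, had 2621 and 3025, then 689 and 755, then 926 and 764 reads at these times. For 29 members the 48 h mean was at or below that after 96 h, while 184 had their lowest mean after 96 h.

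Among 23 signalling members were ligands (Fgf17, Bmp4 and the Notch ligand Dll1), receptors (Met, Epha1 and S1pr3) and feedback inhibitors. Spry2, which damps receptor tyrosine kinase signals, had 6063 and 6338 reads at the start, 3256 and 3140 after 24 h, 2530 and 2718 after 48 h, and 3145 and 3209 after 96 h. Its low-dose libraries had 4118 and 4106 reads, and those without doxycycline 2226 and 2292. Spry1, its paralogue, had 791 and 807 reads at the start and 433 and 401 after 96 h. Fgf17 had 1221 and 1348 reads at the start, 1105 and 1087 after 48 h, and 665 and 693 after 96 h, and so was lower mainly after 48 h. Axin2, a scaffold and feedback inhibitor of Wnt signals, had 476 and 454 reads at the start, 247 and 196 after 48 h, and 169 and 151 after 96 h. Bmp4, a Tgf-β family ligand, had 1131 and 1122 reads at the start and 329 and 342 after 96 h. The low dose gave 616 and 612, and the large dose 531 and 569, against 321 and 290 without doxycycline.

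Dll1 took another course. It had 149 and 164 reads at the start, 242 and 269 after 24 h, 196 and 231 after 48 h, and 92.3 and 64.4 after 96 h, so it was above its start before it was below it. In the rescue it had 13.8 and 17.2 reads without doxycycline, 79.2 and 86.3 with 0.1 µg/mL, and 107 and 109 with 2.5 µg/mL. In all, 47 members were under 1/1.5 of their 0 h mean after 24 h and 20 were over 1.5 times it. These counts were not made over all genes. Among the 20 were Matn3, Col8a2, Col11a1, Fbn2 and Mmp2 of the extracellular matrix, Gap43, Prph and Camkv of neurons, and Cnn1 and Myh3 of muscle.

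Matrix or secreted proteins are encoded by 12 members, and 8 of these had a higher mean after 24 h than at the start. Matn3, a matrilin of cartilage matrix, had 104 and 113 exon reads at the start, 171 and 173 after 24 h, 73.8 and 63.7 after 48 h, and 4.86 and 10.1 after 96 h. In the rescue it had 3.94 and 4.31 reads without doxycycline, 61.6 and 46.7 with 0.1 µg/mL, and 64.0 and 63.3 with 2.5 µg/mL. Its intron reads had the same course, with 110 and 113 at the start, 168 and 174 after 24 h, and 2.01 and 1.05 after 96 h. They were 0 in both libraries without doxycycline, so no intron fold is given there, and 23.4 and 34.4 with 0.1 µg/mL. Mmp2, a gelatinase, had 565 and 521 exon reads at the start, 1175 and 1245 after 24 h, 1036 and 1101 after 48 h, and 288 and 278 after 96 h. Spink1, a trypsin inhibitor, was lower at every later time, going from 128 and 139 reads at the start to 101 and 75.7 after 24 h, 36.9 and 23.4 after 48 h, and 7.77 and 4.03 after 96 h. Spink1 had the highest low-dose ratio of all members, 24.8, from 3.94 and 2.16 reads to 72.9 and 126. With so few reads without doxycycline, the size of this ratio is uncertain. Rbp4, which carries retinol, had 1.97 and 0 reads without doxycycline and 12.6 and 28.3 with 0.1 µg/mL, counts too low to rank it.

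Of 18 neuronal and ion channel genes, 12 had a higher mean after 24 h than at the start. Gap43, a protein of growth cones, had 922 and 916 reads at the start, 1674 and 1609 after 24 h, 1207 and 1157 after 48 h, and 96.2 and 102 after 96 h. Nearly all of its difference lay after 48 h. In the rescue Gap43 had 46.3 and 56.0 reads without doxycycline, 584 and 646 with 0.1 µg/mL, and 727 and 777 with 2.5 µg/mL. P2rx3, an ATP-gated channel, went the other way early, from 94.7 and 158 reads at the start to 31.9 and 34.9 after 24 h. Among the 8 muscle and cytoskeletal genes, Jph1, which ties the surface membrane to the sarcoplasmic reticulum, had 235 and 260 reads at the start and 42.7 and 47.3 after 96 h. The filamin-binding gene Fblim1 had 22735 and 24051 reads at the start and 9042 and 8748 after 96 h. The actin-binding gene Nexn, with 72.5 and 35.0 reads at the start and 15.5 and 4.03 after 96 h, sat at the floor of the rule. In the rescue it had 15.8 and 1.08 reads without doxycycline and 22.6 in both libraries with 0.1 µg/mL, a narrow gap.

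Metabolic enzymes and transporters account for 20 members. Odc1, the first and rate-limiting enzyme of polyamine synthesis, had 41961 and 41870 reads at the start, 29000 and 28559 after 24 h, 16787 and 16604 after 48 h, and 16672 and 15454 after 96 h. The low dose brought it to 25230 and 24938 reads from 11706 and 12320, and the large dose to 33329 and 33091. Aldoa, a glycolytic aldolase and the most abundant member, was higher after 24 h, with 81439 and 85053 reads against 62978 and 63474 at the start. At 96 h Aldoa had 32280 and 40859 reads. Hmox1, which breaks down heme, had 9770 and 9651 reads at the start and 5081 and 5465 after 96 h. The one-carbon enzyme Shmt1 had 6047 and 6019 reads at the start and 3563 and 3250 after 96 h. Of the 6 germline genes, Dazl, an RNA-binding protein of germ cells, had 379 and 332 reads at the start, 383 and 414 after 24 h, and 195 and 224 after 96 h. The imprinted gene Mest had 11391 and 10872 reads at the start, 4795 and 4501 after 96 h, 2858 and 3045 without doxycycline, and 5322 and 4998 with 0.1 µg/mL.

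**Figure D2:**
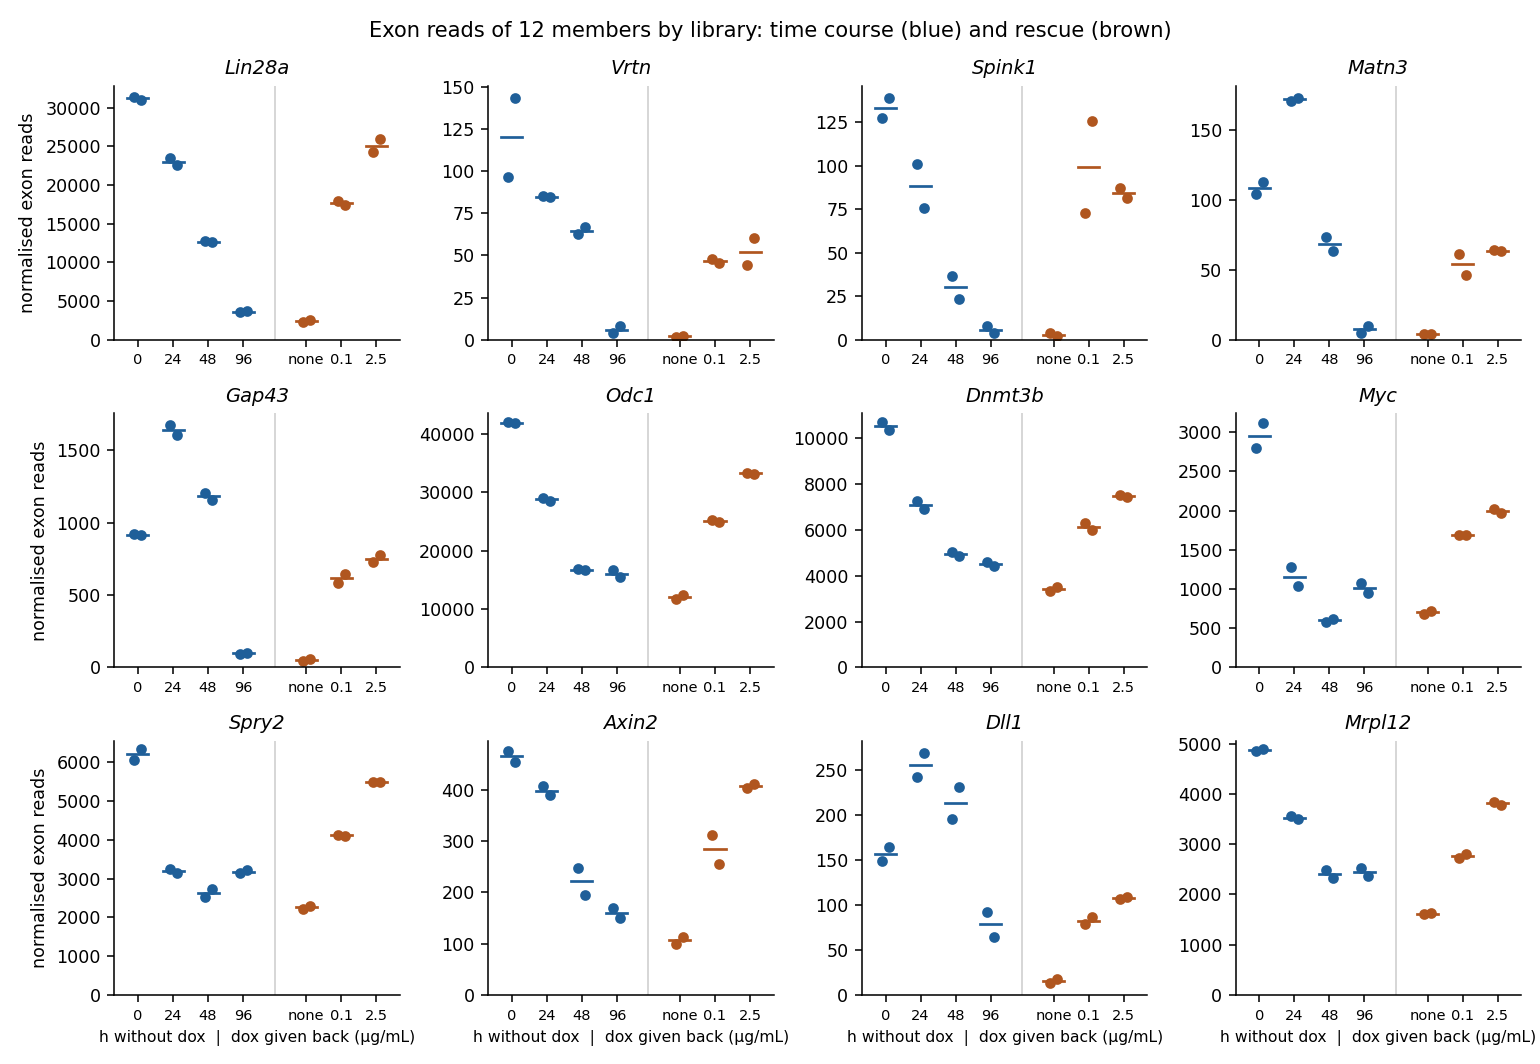
Normalised exon reads (y, from 0) of 12 members in each library of the time course (blue, h without doxycycline) and of the rescue (brown, µg/mL doxycycline given back), with points for libraries and bars for means of 2. Lin28a, Odc1 and Dnmt3b go down from the start, Gap43, Matn3 and Dll1 are highest after 24 h, and Myc and Spry2 are lowest after 48 h.

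Across the members the median ratio to 0 h was 0.855 after 24 h, 0.626 after 48 h and 0.426 after 96 h. At 24 h, both libraries were below both 0 h libraries in 120 members (36.4% of all genes) and above them in 52 (38.3% of all genes). The log2 difference after 24 h was, at the median, 14.4% of that after 96 h. The highest of the 4 group means was at the start in 137 members, after 24 h in 63 and after 48 h in 14. By role, the median 24 h ratio was lowest for RNA-binding and translation genes (0.734, n = 15), mitochondrial genes (0.759, n = 11) and transcription factors and chromatin genes (0.786, n = 24). It was above 1 for germline (1.01, n = 6), muscle (1.04, n = 8), neuronal (1.19, n = 18) and matrix genes (1.22, n = 12). No test of these roles was made, and 77 members were given none.

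The large dose gave somewhat more than the small one. The median ratio of 2.5 to 0.1 µg/mL was 1.22. Both libraries at 2.5 µg/mL were above both at 0.1 µg/mL in 127 members (34.9% of all genes) and below them in 12 (32.9% of all genes), within the limits of 0.67 and 1.5 that the rule set. In the 2.5 µg/mL libraries the members stood at a median of 2.55 times the level without doxycycline.

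Intron reads, which come from unspliced RNA, were lower too. Of 184 members with at least 10 mean intron reads in the time course, 162 had both 96 h libraries below both 0 h libraries, against 36.4% of all genes. Over all 214 the median intron ratio was 0.491 after 96 h. In the rescue 129 of 163 members had both 0.1 µg/mL libraries above both without doxycycline, against 27.5% of all genes, and the median low-dose intron ratio was 1.77. Other members differed less in introns than in exons. The introns of 1110008F13Rik, now named Rab5if, had 623 and 591 reads at the start and 583 and 681 after 96 h, with overlap, while its exons went from 3406 and 3363 to 1903 and 1691. Fgf17 introns had 343 and 322 reads at the start and 278 and 287 after 96 h, a mean ratio of 0.851 where its exons had 0.529. At the other end, Etv4 introns had 2450 and 2590 reads at the start, 525 and 559 after 48 h and 981 and 912 after 96 h, the course of its exons.

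**Figure D3:**
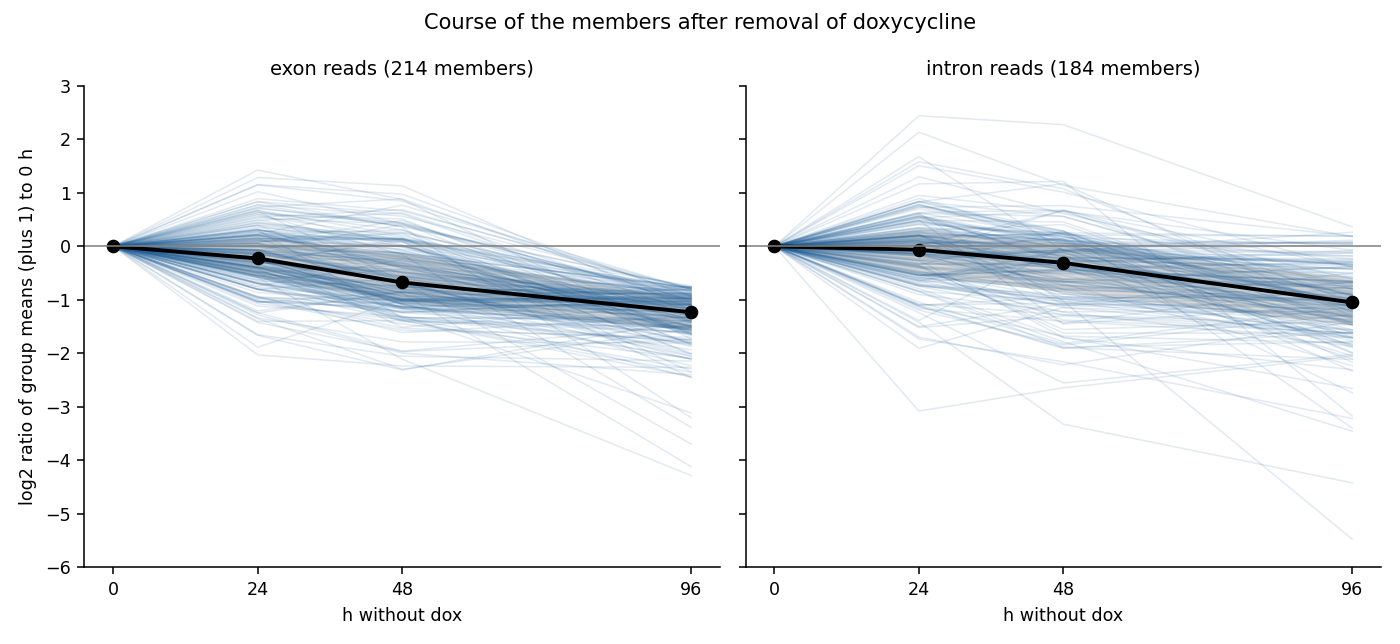
Log2 ratio of group means (plus 1) to 0 h (y) against h without doxycycline (x) for exon reads of 214 members (left) and intron reads of the 184 members with a mean of at least 10 (right). Thin lines are genes and the black line is the median. Exon lines spread to both sides of 0 after 24 h and all lie below log2(0.6) after 96 h, as the rule requires.

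From 24 h to 48 h, a step whose 2 groups enter no ratio of the rule, 104 of 214 members fell and 4 rose in exon reads (limma, Benjamini-Hochberg adjusted p below 0.05 over 13652 genes). Among all genes 18.8% fell and 20.2% rose. The members' median log2 change was -0.40, against 0.01 over all genes, and 190 of 214 were below 0. Both groups count in the mean level the rule asks for, and the 0 h and 96 h libraries it compared are of the same course. Of falling genes with a low-dose ratio under 1.7, 252 of 517 were lower in this step, and of those higher again at 2.5 µg/mL 57 of 118. No test between the sets was made.

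The steepest fall in this step was that of Cntnap2, a neuronal adhesion protein, from 136 and 167 reads to 39.1 and 56.4 (log2 change -1.66, SE 0.27, adjusted p 3.82e-05). Spink1 (-1.54, adjusted p 0.00201), Matn3 (-1.32, 0.00176), Ap1s3, an adaptor subunit (-0.97, 5.75e-05), and Jph1 (-0.96, 0.000917) followed. Myc fell by 0.94 (SE 0.09, adjusted p 4.7e-08) and Lin28a by 0.86 (SE 0.04, adjusted p 4.23e-13). All 15 RNA-binding and translation members fell, Tomm5 by 0.90 (adjusted p 2.27e-09) among 8 of 11 mitochondrial ones. The calls of Casq1, a calcium-binding protein of muscle (-1.33, adjusted p 0.00134), and Irf8, an interferon regulatory factor (-1.07, adjusted p 0.00692), were lost without 48 h library 2, at adjusted p 0.0544 and 0.0501. The 4 that rose were P2rx3 (0.84, adjusted p 0.041), the calcium channel gene Cacna1h (0.53, 0.00671), the lipoprotein receptor gene Vldlr (0.50, 0.0174) and Igsf10, an immunoglobulin superfamily gene (0.42, 0.00521). None of these 4 kept its call without each library in turn: P2rx3 had an adjusted p of 0.433 without 48 h library 1, Cacna1h 0.0788 and Vldlr 0.170 without 48 h library 2, and Igsf10 0.0891 without 24 h library 2.

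In introns the same step gave 31 members lower and 0 higher of 184 (limma). Among all 12225 genes 4.42% were lower and 4.77% higher. At an unadjusted p below 0.05, 62 members were lower and 4 higher, where 1339 and 1399 of all genes were so. Limma voom called 37 members lower and 0 higher, and 646 and 588 of all genes. The intron reads of Casq1 fell most among the members (-1.94, adjusted p 0.00558), followed by Spink1 (-1.89, 0.000403) and Acot1, an acyl-CoA thioesterase (-1.81, 0.0296). Those of Matn3 (-1.64, 0.00182), Jph1 (-1.44, 0.00177) and Bmp4 (-1.40, 0.0151) came next. Lin28a introns fell by 0.94 (adjusted p 0.0377), Smarca1 introns by 0.55 (0.00413) and Dnmt3b introns by 0.40 (0.00243). Without 48 h library 2 fewer members and fewer of all genes were lower. The members' median log2 change was then -0.285, against -0.2865 with all libraries.

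The clones labelled Ago-null share no library with the choice of members, and they were compared with E7, whose genotype differs from theirs by hAgo2fl. Of 213 members tested, 25 were lower and 0 higher in the clones (limma, adjusted p below 0.05 over 13142 genes). Over all genes 0.791% were lower and 0.715% higher. At an unadjusted p below 0.05, 103 members were lower and 0 higher, where 1296 and 1365 of all 13142 genes were so. Limma voom called 21 members lower and 0 higher, and 89 and 187 of all genes. The members' median log2 change was -0.97, against 0.02 over all genes, and 188 of 213 lay below 0. More members were called without clone library 1 and fewer without clone library 2, as over all genes, with members' medians of -1.05 and -0.88. The count was 15 without E7 library 1 and 7 without E7 library 2, where 52 and 12 of all genes were lower, against 104 with all libraries. Fitted with these 2 groups alone the count was 12, where 37 of all genes were lower. Of the 25 genes 12 also fell from 24 h to 48 h, which is 12 of the 104 that fell there.

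Gap43 (chr16:42248442-42340651, - strand) had the largest change. Its reads were 1022, 733 and 203 in E7 and 3.86 and 5.34 in the clones, a log2 change of -6.59 (SE 0.61, adjusted p 0.000962), and the call was missed with limma voom at 0.0521. Pla2g1b (chr5:115466262-115474722, + strand), a secreted phospholipase A2, had 701, 506 and 445 reads in E7 and 13.99 and 33.3 in the clones (-4.58, SE 0.39, adjusted p 0.000572). Lin28a had 17075, 14051 and 8030 reads in E7 and 891 and 579 in the clones (-4.11, SE 0.32, adjusted p 0.000546). Smarca1 (chrX:47809368-47892974, - strand), an ISWI chromatin remodeller, had 510, 403 and 313 reads in E7 and 50.2 and 38.7 in the clones (-3.16, SE 0.35, adjusted p 0.00269). The clones lay below every E7 library in all 4 genes, and the last 3 kept their call without each library in turn.

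Other large changes lost their call when single libraries were left out. Without E7 library 2, lower calls over all genes also went from 104 to 12. Dll1 had 172, 396 and 139 reads in E7 and 18.8 and 25.3 in the clones (-3.22, SE 0.46, adjusted p 0.01), and 0.05002 without E7 library 2. Igsf10 (-3.58, adjusted p 0.01) had 0.0514 without E7 library 2 and 0.0504 without clone library 2. Rasgrp2, a guanine nucleotide exchange factor for Rap (-3.31, adjusted p 0.0293), and Pou2f2, an octamer-binding factor (-3.21, adjusted p 0.0235), had 0.131 and 0.120 without E7 library 2. They had 0.0791 and 0.0657 without E7 library 1. Mgst1, a microsomal glutathione transferase (-4.07, adjusted p 0.0348), had 0.156 without E7 library 2, 0.150 without clone library 2 and 0.0809 without E7 library 1. Mtap7d3, now Map7d3, a microtubule-binding protein gene (-2.68, adjusted p 0.026), had 0.123, 0.109 and 0.0739 in the same 3 cases. Fgf17 fell to 171 and 86.7 reads from 927, 574 and 532 (-2.42, adjusted p 0.01), and had 0.0607 without E7 library 2 and 0.0543 without clone library 2.

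Smaller and steadier differences were seen for Usp44, a deubiquitinase of the mitotic checkpoint, with 633, 706 and 837 reads in E7 and 163 and 107 in the clones (-2.44, adjusted p 0.00532), and Slc16a3, a lactate transporter, with 4406, 4819 and 3832 against 1166 and 1239 (-1.85, adjusted p 0.00269). Etv4 was lower as well, with 2450, 1711 and 1454 reads in E7 and 785 and 824 in the clones (-1.18, adjusted p 0.0458). It had an adjusted p of 0.117, 0.168 and 0.126 without E7 library 1, E7 library 2 or clone library 2. Mest (-1.50, adjusted p 0.0467) was lost in the same 3 cases, at 0.122, 0.201 and 0.194. By role, 5 of 24 transcription factors and chromatin genes, 5 of 23 signalling genes, 3 of 18 neuronal genes and 1 of 15 RNA-binding and translation genes were lower in the clones.

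Many abundant members were not called against E7, whose own libraries spread widely. Odc1 had 20430, 13756 and 8724 reads in E7, which overlap its 9843 and 12117 in the clones, a log2 difference of -0.30 (SE 0.35, adjusted p 0.649). Dnmt3b had 5422, 4603 and 2129 against 2879 and 2001, again with overlap (log2 change -0.65, SE 0.42, adjusted p 0.41). For Spry2 the values were 3017, 2615 and 1156 in E7 and 1250 and 1007 in the clones, a log2 difference of -0.90 (SE 0.41, adjusted p 0.246). E7 values spread this widely, so the tests do not show that the levels were alike.

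**Figure D4:**
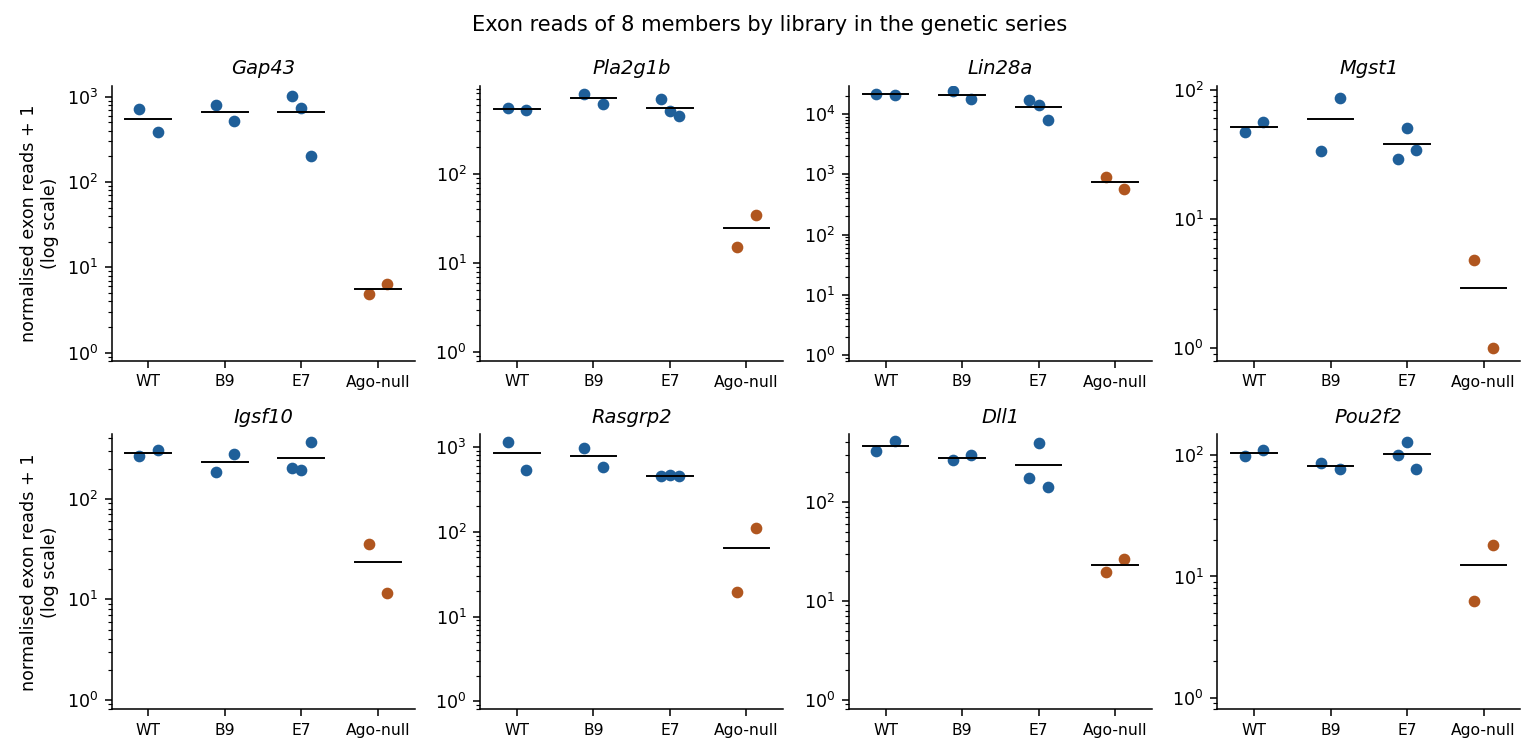
Normalised exon reads plus 1 (y, log scale) of the 8 members with the largest called change between the clones and E7, per library (points) with group means (bars), for wild type, B9, E7 (blue) and the clones labelled Ago-null (brown). Clone libraries lie below every E7 library in all 8 genes. For Mgst1 1 clone library is at 0 reads.

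Intron reads were lower in the clones for 9 of 168 members and higher for 0 (limma), against 0.113% lower and 0.0174% higher over 11463 genes. At an unadjusted p below 0.05, 51 were lower and 0 higher, where 500 and 506 of all genes were so. With limma voom 3 were lower and 0 higher, against 5 and 2 of all genes. Pla2g1b introns had 1535, 1273 and 1737 reads in E7 and 48.4 and 123 in the clones (-4.26, SE 0.37, adjusted p 0.000373), and Smarca1 introns 107, 185 and 171 against 16.5 and 9.78 (-3.46, SE 0.42, adjusted p 0.00794). In each of the 23 libraries Pla2g1b had more intron than exon reads. Matn3 introns had 40.3, 56.9 and 12.5 reads in E7 and 0 in both clone libraries, so no fold is given. The count was 2, 4 and 4 without E7 library 1, 2 or 3, where 2, 5 and 7 of all genes were lower, against 13 with all libraries. Fewer members were also called without clone library 2, with a median log2 change of -0.52 against -0.77 with all libraries. Exon and intron libraries were each numbered by depth and need not match.

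Against wild type, 112 of 213 members were lower in the clones and 0 higher (7.72% lower and 10.9% higher over all genes), with a median log2 change of -1.81. At an unadjusted p below 0.05, 158 were lower and 1 higher, where 2135 and 2420 of all 13142 genes were so. With limma voom, 114 were lower and 0 higher, against 979 and 1429 of all genes. Lin28a had 21553 and 20642 reads in wild type (-4.87, adjusted p 0.000154). Vrtn had 399 and 270 reads in wild type and 6.75 and 2.67 in the clones (-5.95, adjusted p 0.00058), and Pou3f1 2395 and 1388 against 61.7 and 98.7 (-4.53, adjusted p 0.000302). Among abundant members, Odc1 had 34929 and 27058 reads in wild type (-1.49, adjusted p 0.0217), but its call was lost without any one of the 4 libraries, at 0.0566 to 0.127. Dnmt3b (-2.32, adjusted p 0.00774) had 0.0614 without wild-type library 1 and 0.0558 without clone library 2. Fewer members were called without wild-type library 1 or 2, as over all genes, with members' medians of -1.84 and -1.74. Against B9, 92 were lower and 0 higher (5.41% and 7.6% over all genes), with a median of -1.57. There 145 were lower and 0 higher at an unadjusted p below 0.05, where 1971 and 2157 of all genes were so. Voom called 91 and 0 members, and 680 and 1073 of all genes. Without B9 library 1, B9 library 2 or clone library 2 fewer members were lower, as over all genes. The members' medians were then -1.59, -1.60 and -1.43. The 3 comparisons share the clone libraries.

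E7, which carries hAgo2fl, was itself lower than wild type in 23 members and higher in 0 (1.46% and 3.1% over all genes), with a median of -0.72. At an unadjusted p below 0.05, 74 were lower and 8 higher, where 1109 and 1465 of 13142 genes were so. Voom called 28 and 0 members, and 221 and 276 of all genes. Vrtn had 20.2, 25.3 and 12.8 reads in E7 (-4.06, adjusted p 0.00638), and Fndc3c1, a fibronectin type III gene, 28.3, 43.7 and 12.8 against 594 and 588 in wild type (-4.50, adjusted p 0.00522). Pou3f1 had 251, 409 and 222 in E7 (-2.68, adjusted p 0.00638). Few of these calls were made without wild-type library 1 or 2, as over all genes, and the medians were then -0.65 and -0.78. Without E7 library 2 or 3 the count was 6 and 13, where 47 and 96 of all genes were lower, against 192 with all libraries. Between E7 and B9 no member was called (limma), where 0.0685% of all genes were. At an unadjusted p below 0.05, 42 members were lower and 2 higher in E7, where 371 and 746 of 13142 genes were so. The members' median was -0.60, and limma voom called 0 of them, with 0 lower and 3 higher over all genes.

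B9, whose genotype leaves Ago2 as its one Argonaute, had 0 members called against wild type (limma), with 0.0533% of all genes lower and 0.0152% higher. At an unadjusted p below 0.05, 18 members were lower and 5 higher, where 417 and 547 of 13142 genes were so. Limma voom called 2 members lower and 0 higher, and 12 and 3 of all genes. The members' median log2 change was -0.10, with 124 of 213 below 0. Lin28a had 24285 and 17764 reads in B9, which overlap those of wild type. Vrtn, at 70.0 and 36.5 reads in B9, lay below both wild-type libraries, and Usp26, a testis ubiquitin peptidase gene on the X chromosome, had 354 and 1314 against 443 and 699. The median SE of a member's log2 change was 0.487 to 0.534 here, and 0.142 for the time course, so an absence of calls does not bound small changes closely.

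**Figure D5:**
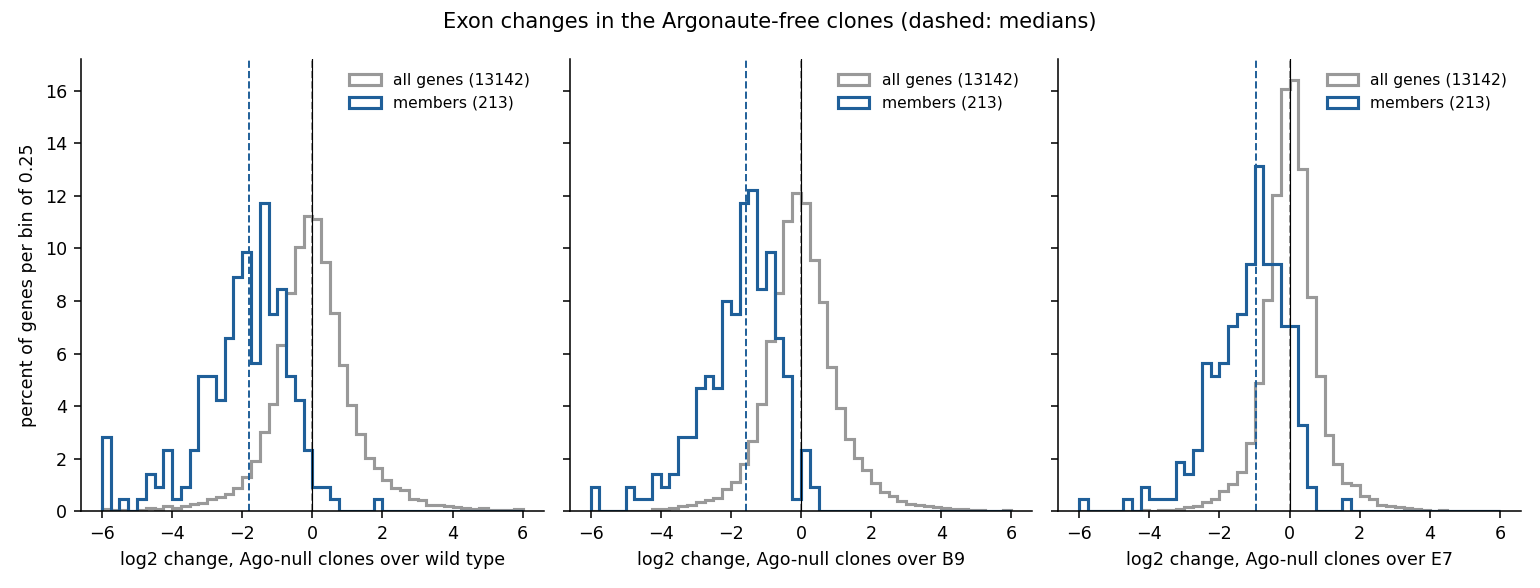
Share of genes (y, percent per bin of 0.25) by log2 change of exon reads (x) in the clones over wild type, B9 and E7, for 213 members (blue) and all 13142 genes tested (grey). Values past 6 on either side are drawn at 6, dashed lines are medians, and the panels share the clone libraries. The members' medians are -1.81, -1.57 and -0.97.

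Beside the members, the other falling genes moved less against E7 where the low dose restored them less: 13 of 515 were lower in the clones, with a median log2 change of -0.48. Genes higher again at 2.5 µg/mL had 18 of 118 lower and a median of -1.03. Differences between these sets were not tested.

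Pathway lists were read for their genes that are no members. The rule took out of each list the genes that were low after 96 h and returned, so the counts of the others describe what is left and test nothing about the members. In the Fgf and Erk feedback list, 4 of 19 genes were members (Fgf17, Spry1, Spry2 and Etv4). Of 14 other genes tested, 7 fell and 4 rose after 96 h (limma, where 32.5% of all genes fell and 32.4% rose). At the low dose 6 of 13 rose and 2 fell, where 22% of all genes rose and 22.1% fell. The formative list had 3 of 14 genes as members (Pou3f1, Dnmt3b and Dnmt3l), and of 8 others 5 fell and 2 rose after 96 h, while 5 rose and 2 fell at the low dose.

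In some other lists the rest of the genes went more often against their members, and in others with them. Of 20 other metalloproteinase and matrix genes, 13 rose and 6 fell after 96 h, and 11 fell and 3 rose at the low dose, where Mmp2, Matn3 and Spink1 are the members. Of 22 others in the Myc network and cell cycle list, 15 rose and 5 fell after 96 h, and 12 fell and 4 rose at the low dose. Bmp4 was the 1 member of the Tgf-β, Nodal and BMP list, of which 16 of 26 others rose and 4 fell after 96 h, and 13 fell and 2 rose at the low dose. In the Lin28, let-7 and Trim71 list 7 of 14 others rose and 1 fell after 96 h. Wnt genes other than Axin2 were mixed, with 8 of 17 higher and 5 lower after 96 h. Of the imprinted genes other than Mest 11 of 18 fell and 1 rose, and of the germline genes other than Dazl 13 of 18 fell and 4 rose. Of 19 serine and one-carbon genes other than Shmt1, 15 fell and 0 rose after 96 h, and 12 rose and 1 fell at the low dose. Of 18 stress response and Atf4 target genes other than Vldlr, 12 fell and 4 rose, then 11 rose and 0 fell. Of 19 glycolysis and hypoxia genes other than Aldoa, 11 fell and 6 rose, then 15 rose and 1 fell.

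The ribosome biogenesis list used here, which leaves out the members Nip7 and Nhp2, and the cytosolic aminoacyl-tRNA synthetase list held no member. Yet 21 of 22 and 19 of 20 of their genes fell after 96 h. Their median log2 changes were -0.45 and -0.40, short of the limit of the rule, and 19 and 15 rose at the low dose. Of 20 known targets of the ES-cell microRNAs tested, none a member, 20 rose after 96 h with a median of 1.24, and 18 fell at the low dose.

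Promoter and 3′ UTR letters were counted as a description. Of 214 members, 168 had a RefSeq promoter window and 212 a 3′ UTR. The CACGTG box of Myc and Max stood in 13 of the 168 windows (7.74%), against 15.5% of 407 windows of falling genes with a low-dose ratio under 1.7, 10.2% of windows of genes with a mean of at least 10 reads and 8.81% of all 14375 windows. GGGCGG was found in 64.9% of members' windows and 64.8% of those of genes with a mean of at least 10, and CCAAT in 42.3% and 38.9%. CATGCGC, an Nrf1 motif, stood in 3.57% against 7.09%, and TATAAA in 9.52% against 6.83%. In falling genes with a low-dose ratio under 1.7 these 4 motifs stood in 64.4%, 40.3%, 8.11% and 8.11%. The median GC content was 60.7% in members and 61.0% in genes with a mean of at least 10. The miR-294 seed match AGCACTT stood in 20 of 212 3′ UTRs of members (9.43%), against 17.0% of genes with a mean of at least 10 and 24.2% of genes whose 96 h level was at least 1/0.6 times that at the start. Falling genes with a low-dose ratio under 1.7 had it in 11.2%. The let-7 match CTACCTC stood in 14 (6.60%), against 10.5%, 12.03% and 9.63% of the same sets. Median UTR lengths were 990 bases in members and 1136, 1285 and 1016 in those sets, and longer UTRs hold more matches by length alone. Per kb of UTR, the miR-294 match stood 0.0785 times in members and 0.130, 0.178 and 0.0913 times in those sets. For let-7 it was 0.0556 in members and 0.0746, 0.0795 and 0.0710. These differences were not tested. Of the members with a mapped gene, 16 lie on the X chromosome (7.51%, against 3.58% of genes with a mean of at least 10), Smarca1, Usp26 and Foxr2 among them. Exon models were under 1000 bases in 12.2% of members, 6.04% of those genes and 11.8% of falling genes with a low-dose ratio under 1.7.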

How the data were processed

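Polyadenylated RNA of 23 ES-cell samples in 11 groups was sequenced with strand kept. Per the submitters' processing notes, reads were aligned to mm10 with TopHat2 2.0.12 and normalised with DESeq. Each of the 6 deposited tables (3 series, exon and intron) holds 1 column per group, a signal value that is the authors' mean of normalised read numbers. Since each mean is a sum of whole reads over size factors, the reads of each library were recovered by solving for whole numbers. This gave 404962 of 405064 values (99.97%), and the worst fit was off by 5.27e-15 of the value. The 102 unsolved values all lie in E7, where 101 genes hold 17.7% of the exon sum. Among the members that is Aldoa, which therefore has no test in the genetic series. Libraries are numbered by depth within a group, the deepest being 1, separately for exons and introns. Which deposited sample each is, and which clone, is not known.

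Differences were tested with limma 3.58.1 (R 4.3.3, prior trended on level) on log2(normalised reads + 1), for genes with a mean of at least 10, with all groups of a table in one fit and a Benjamini-Hochberg adjusted p below 0.05 as the call. Fold changes are on that scale, which understates those of low genes. The recovery and tests were checked on simulated data. For the tests, simulated libraries of a series had the same spread in all groups and genes, beside that of read sampling. The check therefore does not show how often calls are false at the spread of the real libraries. Python 3.11.15, pandas 2.3.3, numpy 2.4.6 and matplotlib 3.10.9 were used. Alternatives were a pseudocount of 8, no minimum or one of 50, upper-quartile scaling, only the 2 groups compared, limma voom, and each library left out.

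The members and gene lists were chosen with earlier results of these data known. Genes were named by rule: the 12 lowest 96 h ratios, the 12 highest low-dose ratios, the 8 highest levels, members of a list, the largest called changes, and those nearest a limit. Other members were named as examples of a role after their values were seen. In addition, Fgf13 and Phactr3 were named as exceptions.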

Additional observations from a re-analysis of the deposited data

How the results depend on the processing

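No paired analysis was possible because the columns carry no replicate numbers and the recovered libraries cannot be tied to samples. With each library of the time course or rescue left out, 201 to 228 genes met the rule, but the members among them changed. Of the 214, 169 and 174 met it without the first or second library at 0.1 µg/mL, 194 and 185 without one without doxycycline, and 191 to 214 without any other. With a pseudocount of 8 it was 190, and with upper-quartile scaling 206. For the clones against E7, the count of lower members was 12 with only these 2 groups fitted and 7 to 59 with a library left out. In introns it was 3 with limma voom and 2 to 12 with a library left out. B9 against wild type gave 1 lower member with a pseudocount of 8 and 2 with limma voom. For 48 h against 24 h, 2 members were higher without a minimum level. With a library left out, lower members numbered 53 to 109 for the clones against wild type, 35 to 101 against B9, and 1 to 17 for E7 against wild type. They numbered 0 for B9 against wild type and 0 for E7 against B9. For 48 h against 24 h there were 84 to 95 lower and 1 to 6 higher in exons, and 19 to 28 lower and 0 to 2 higher in introns. In exons, no called change of a member named by rule reversed in sign in the clones' comparisons or from 24 h to 48 h. Other named changes were not checked for this. Upper-quartile scaling moved the median of all genes against wild type from -0.01 to -0.12. Leaving out a library moved the counts over all genes too. For the clones against E7, 52 of all genes were lower without E7 library 1 and 12 without E7 library 2, against 104 with all libraries. The cause of these shifts was not tested. Depth limits the low members. Spink1, Vrtn, Matn3, Nexn, Rbp4 and Dll1, for example, rest on under 20 exon reads per library in the rescue without doxycycline.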
